A study of Mus musculus with 10 samples.

Results

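Igkv11-114 and Igkv1-117 are 2 of the 162 annotated V segments of the mouse immunoglobulin kappa locus, and both were recurrent partners of a fixed DNA break in Abelson-transformed pre-B cells. Every translocation junction on chromosome 6 inside either segment or within 500 bp of it was taken. Igkv11-114, annotated as a V segment pseudogene, spans 68164459 to 68164923 (mm10), and Igkv1-117, annotated as a V segment, spans 68121091 to 68121825. There were 230 junctions at Igkv11-114 and 192 at Igkv1-117, together 422 of the 5859 junctions in the kappa locus and of 68433 in all 10 libraries. The segments were chosen by their share of kappa junctions, which was higher in the libraries with an added AsiSI endonuclease than in the other 8, so that contrast is given as a description, with no test. The position, strand and shared bases of the junctions describe the breaks themselves.

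All 10 libraries came from 1 kind of cell, Abelson-transformed pre-B cells of C57BL/6 origin with the genotype LIG4-/-, which lack the ligase of classical end joining. All cells were held in G1 for 48 h with imatinib, and from 24 h onward doxycycline at 1 µg/ml induced the zinc-finger nuclease that makes the fixed break. The AsiSI library additionally had AsiSI, a restriction endonuclease with many sites in the genome, induced by doxycycline and, 20 h later, by tamoxifen at 1 µM. The library with DRB and AsiSI was also pretreated for 2 h with DRB, an inhibitor of transcription elongation. The 2 etoposide libraries received etoposide, a drug that holds topoisomerase II in its DNA-cutting step, at 50 µM for 2.5 h, with 12 h of recovery. Single libraries had DRB with etoposide, IFN with etoposide, DRB alone and IFN alone, where IFN is the label's abbreviation and is not spelled out. The 2 untreated libraries had only imatinib and the induced nuclease. High-throughput genome-wide translocation sequencing reads the DNA (the prey) that was joined to the fixed break (the bait), so it gives no RNA level, and the labelled cell type could not be checked against marker genes. Apart from the etoposide and untreated groups, each group is 1 library, and whether the replicates are separate cultures is not stated.

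In pre-B cells arrested in G1, the RAG recombinase is active at the kappa locus. RAG cuts between a gene segment and the recombination signal sequence beside it, which has a heptamer, a spacer and a nonamer. The cut leaves 2 ends that differ: a coding end on the segment side, closed as a hairpin, and a blunt signal end that carries the heptamer. Without Lig4 these ends are not joined by the classical route, and they can be caught by a break elsewhere. The consensus heptamer reads CACAGTG and the consensus nonamer ACAAAAACC. A V segment has its signal at its 3′ end.

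The sequences below are the places compared at the members and at the related segment Igkv11-125. Of them, only Igkv11-114 start was placed where the strands of junctions divided. The stretches at the segment ends were placed by a search for the heptamer. All are the majority bases of the deposited reads as aligned to mm10, and capitals mark the heptamer place and the nonamer place. Igkv1-117 end is chr6:68121798-68121877 on the plus strand, Igkv11-114 end is chr6:68164894-68164973 on the plus strand, Igkv11-114 start is chr6:68164391-68164445 on the minus strand, and the matching place of the related segment Igkv11-125 is chr6:67913511-67913565 on the minus strand.
Igkv1-117 end: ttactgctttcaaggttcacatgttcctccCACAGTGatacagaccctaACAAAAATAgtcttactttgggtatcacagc
Igkv11-114 end: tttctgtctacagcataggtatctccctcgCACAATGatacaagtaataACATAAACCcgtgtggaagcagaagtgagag
Igkv11-114 start: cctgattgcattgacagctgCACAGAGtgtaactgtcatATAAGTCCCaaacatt
Igkv11-125 same place: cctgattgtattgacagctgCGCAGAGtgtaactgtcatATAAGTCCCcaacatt
The first stretch rested on 4 to 45 reads a base, the second on 5 to 8, the third on 2 to 75 and the fourth on 1 to 4. In the first 3 stretches 99.6%, 99.4% and 99.7% of the read bases were the letter printed.

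The junctions of Igkv1-117 centred on the recombination signal behind its 3′ end. Its heptamer, CACAGTG at 68121828 to 68121834, matches the consensus at 7 of 7 bases, and after a spacer of 12 bases its nonamer matches at 7 of 9. The heptamer was found by searching for the consensus letters behind the segment end, so its match is by choice. The boundary used next was placed at that heptamer, not by the strands. Of its 192 junctions, 99 (51.6%, exact 95% interval 44.3 to 58.8) lay within 100 bp of the boundary between base 68121827 and base 68121828. This interval pools all libraries and covers counting error only. A junction on the minus strand keeps the DNA to the left of the break, and one on the plus strand keeps the DNA to the right. Of these 99, 38 were minus-strand junctions left of the boundary and 56 were plus-strand junctions right of it, so 94.9% faced away from it, as the ends of 1 break do. The commonest position, 68121856 on the plus strand, had 10 junctions in 5 libraries and is the first base after the signal. The next were 68121812 on the minus strand and 68121849 and 68121871 on the plus strand, with 5 junctions each. Most junctions at 68121856 shared 3 or 4 bases with the bait, and all at 68121849 shared 8. Shared bases could come from either side, so these positions do not give the exact point of joining.

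The junctions of Igkv11-114 centred on the opposite end, before its start. Its reads place the start codon side of the segment on the left, so its 3′ end is on the right, at 68164923. The strands of its junctions divided at 68164425 to 68164427, which leaves 33 bases between the break and the segment. Within 100 bp of that point lay 167 of the 230 junctions (72.6%, exact 95% interval 66.4 to 78.3), 101 on the minus strand to its left and 64 on the plus strand to its right. This interval too pools all libraries and covers counting error only. Only 2 of the 167 faced the other way, so 98.8% faced away from the point. The point was placed where the strands divide best within 100 bp, so a high share is partly set by that choice. Among positions 68164425 to 68164427, the one where the minus strand begins with CACA was taken. Those bases therefore match the heptamer by choice. Read on the minus strand, the bases that begin at the dividing point are CACAGAG, a 6 of 7 match to the heptamer, then a spacer of 12 bases and ATAAGTCCC, a 5 of 9 match to the nonamer (68164398 to 68164425). The commonest positions were all on the minus strand: 68164413 with 15 junctions in 6 libraries, 68164402 with 11 in 5, 68164395 with 6 in 4, 68164397 with 6 in 5 and 68164424 with 5 in 4. Junctions at 68164413 shared 3 to 7 bases with the bait, most of them 5, so the same limit holds there.

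Few junctions lay at the signal behind the 3′ end of Igkv11-114. Its heptamer, CACAATG at 68164924 to 68164930, matches at 6 of 7 bases and its nonamer, ACATAAACC, at 8 of 9. The heptamer was taken as the first CACA behind the segment end, so those bases match by choice. Only 23 of the 230 junctions (10%) lay within 100 bp of this signal, and 60.9% of these faced away from it. This site was not placed by the strands, so its share facing away is not like that at the dividing point. The letters searched are common enough to occur elsewhere: on either strand CACAGTG was found in 1.68% and CACAATG in 0.959% of the first 80 bases of 32851 promoters, and CACAGAG in 1.77% of their first 55 bases (RefSeq, GRCm38.p6). These shares are for the exact letters, and matches at any 6 of 7 bases would be commoner. A match is a description and does not show a site that RAG cuts.

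**Figure D1:**
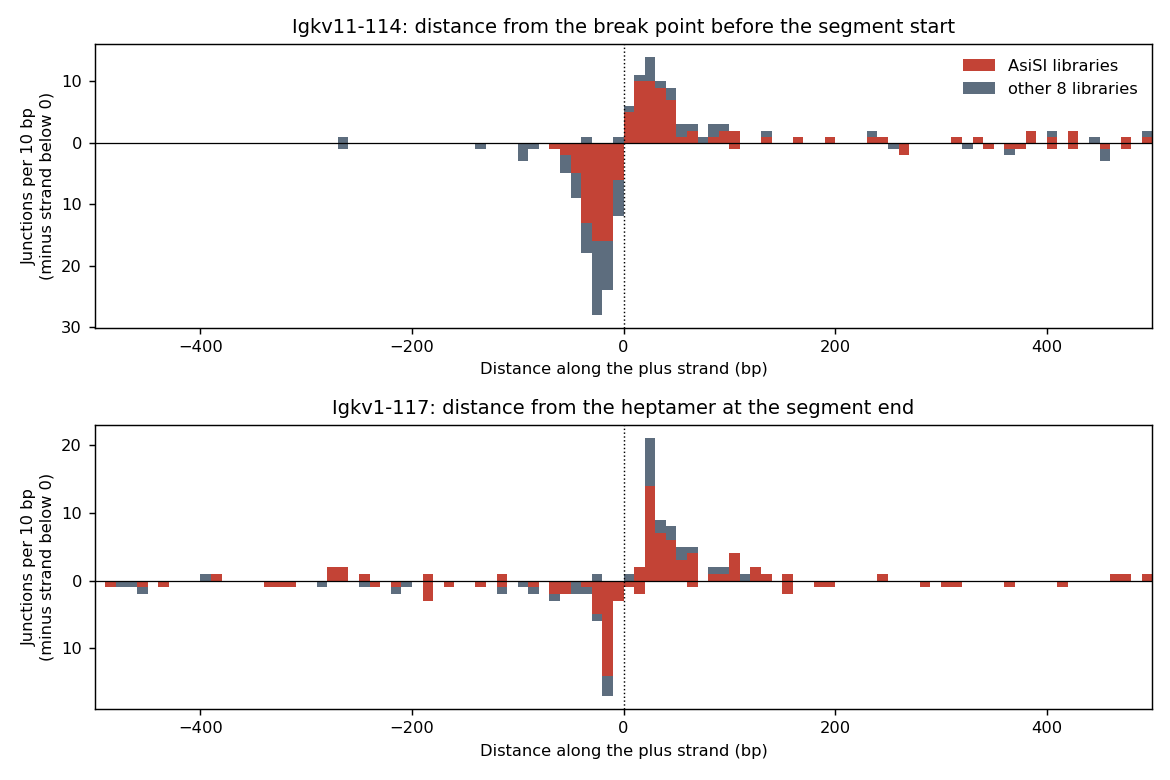
Junctions per 10 bp (y axis; plus strand above 0, minus strand below 0) by distance along the plus strand (x axis, bp) from the point before Igkv11-114 (upper panel) and from the heptamer behind Igkv1-117 (lower panel). Red bars are the AsiSI libraries and grey bars, stacked on them, the other 8; near 0, most minus-strand junctions lie left and most plus-strand junctions right of it in both panels, with some facing the other way farther out. On the minus strand left of the Igkv11-114 point, 101 junctions lie within 100 bp.

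Among the 16 kappa V segments with at least 50 junctions, the orientation could be read for 14. In 13 of these the dividing point lay near the 3′ end of the segment, and in 1, Igkv11-114, near the 5′ end. The dividing points of the other 15 lay at most 18 bp from the nearer edge of the segment, while that of Igkv11-114 lay 34 bp before its start and 498 bp before its 3′ end. Igkv19-93 and Igkv4-80 were the 2 segments with no orientation read. The point for Igkv1-117, found from strands alone, was 18 bp past its 3′ end, inside its signal.

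**Figure D2:**
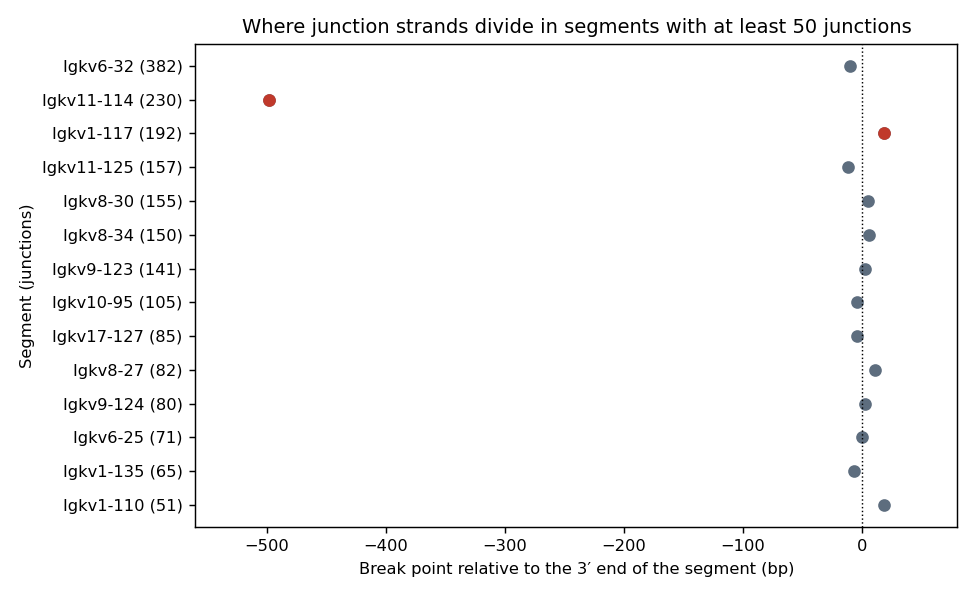
Distance of the dividing point from the 3′ end of the segment (x axis, bp; below 0, inside or before the segment) for the 14 V segments with at least 50 junctions and a read orientation (y axis, with junctions in brackets). Red points are Igkv11-114, at -498 bp, and Igkv1-117, at 18 bp, and the grey points lie near 0.

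Igkv11-125, the segment of the same family among the 5 with the most junctions, had its junctions at its 3′ end. Of its 157 junctions, 128 (81.5%) lay within 100 bp of that end and 9 (5.73%) within 100 bp of the place that aligns with the break of Igkv11-114. Over the 55 bases printed for both, 52 are the same (94.5%). Counted from 1 at the 5′ end of the stretch, with the base of Igkv11-114 before the position and that of Igkv11-125 after it, the differences are C9T, A22G and A49C. A22G is position 2 of the heptamer place and leaves CGCAGAG, a 5 of 7 match, in Igkv11-125, which occurred in 0.715% of the first 55 bases of promoters on either strand. The bases at A22G rest on 6 of 6 reads in Igkv11-114 and 3 of 3 in Igkv11-125. Of the 167 reads near the break, 165 covered at least 1 of 18 positions that differ from Igkv11-125. All 165 carried the Igkv11-114 base at each one covered, 0 the Igkv11-125 base. The bases of both segments were taken from deposited reads already aligned there, so this agreement is partly set in advance. It is no separate check of where the reads belong.

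The ends on either side of a break differed in how far from it they joined. Junctions that faced away were followed out to 1000 bp. On the heptamer side of the Igkv11-114 break, 8 of 109 junctions (7.34%) lay more than 100 bp away, with a median of 27 bp. On the other side it was 43 of 107 (40.2%), with a median of 61 bp. The 3′ end of Igkv11-114, with its signal, lies 498 bp out on that other side. Junctions past it also face away from that signal, and they were not separated. On the heptamer side of the Igkv1-117 break 33 of 89 (37.1%) lay beyond 100 bp, with a median of 54 bp, against 43 of 81 (53.1%) and a median of 140 bp on the coding side. By these counts the heptamer side was the tighter one in both. In the 12 other segments pooled it held 119 of 658 junctions (18.1%) beyond 100 bp, against 232 of 782 (29.7%) on the other side, and the other side had the higher share in 10 of the 12, the exceptions being Igkv6-32 and Igkv6-25. These junctions share libraries and alignment limits, and no test was made. The pattern at Igkv11-114 was present in both sets of libraries, with 5 of 64 heptamer-side and 34 of 82 other-side junctions beyond 100 bp in the AsiSI libraries and 3 of 45 and 9 of 25 in the other 8.

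Both members took a larger part of the kappa junctions in the AsiSI libraries than in any of the other 8. Igkv11-114 held 69 of 1288 kappa junctions (5.36%, exact 95% interval 4.19 to 6.73) in the AsiSI library and 84 of 1730 (4.86%, 3.89 to 5.98) in the library with DRB and AsiSI. In libraries with etoposide it held 2 of 201 (0.995%) and 9 of 422 (2.13%) in replicates 1 and 2, 6 of 208 (2.88%) with DRB and 8 of 335 (2.39%) with IFN. It held 15 of 320 (4.69%, 2.65 to 7.61) with DRB alone and 19 of 433 (4.39%, 2.66 to 6.77) with IFN alone. The libraries with DRB or IFN alone were thus close below the AsiSI libraries, and their intervals overlap those of both. The untreated libraries had 1 of 237 (0.422%, 0.0107 to 2.33) and 17 of 685 (2.48%, 1.45 to 3.94). The mean was 5.11 ± 0.355% in the AsiSI libraries (SD, n = 2) and 2.55 ± 1.47% in the other 8 (SD, n = 8), a difference of 2.56 percentage points, or 2.00 times. The lower AsiSI library was 0.168 points above the highest of the others.

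Igkv1-117 stood farther apart. It held 55 of 1288 kappa junctions (4.27%, exact 95% interval 3.23 to 5.52) in the AsiSI library and 88 of 1730 (5.09%, 4.10 to 6.23) with DRB and AsiSI. With etoposide it held 4 of 201 (1.99%) and 3 of 422 (0.711%) in replicates 1 and 2, 3 of 208 (1.44%) with DRB and 7 of 335 (2.09%) with IFN. It held 6 of 320 (1.88%) with DRB alone, 5 of 433 (1.15%) with IFN alone, and 4 of 237 (1.69%) and 17 of 685 (2.48%) in the untreated libraries. In 8 of 8 other libraries the share was below both AsiSI values. The mean was 4.68 ± 0.577% in the AsiSI libraries (SD, n = 2) and 1.68 ± 0.563% in the other 8 (SD, n = 8), a difference of 3.00 points or 2.79 times, and the nearest values were 1.79 points apart. Among the 42 kappa V segments with at least 10 junctions, 4 (9.52%) had both AsiSI libraries above all of the other 8, and since this contrast chose the members nothing is read from that count. The other 2 were Igkv2-116, which averaged 0.909% in the AsiSI libraries and 0.158% in the other 8, and Igkv8-30, which averaged 3.67% and 1.61%. In 3 segments (7.14%), Igkv11-125, Igkv9-123 and Igkv8-16, both AsiSI libraries were below all of the other 8.

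**Figure D3:**
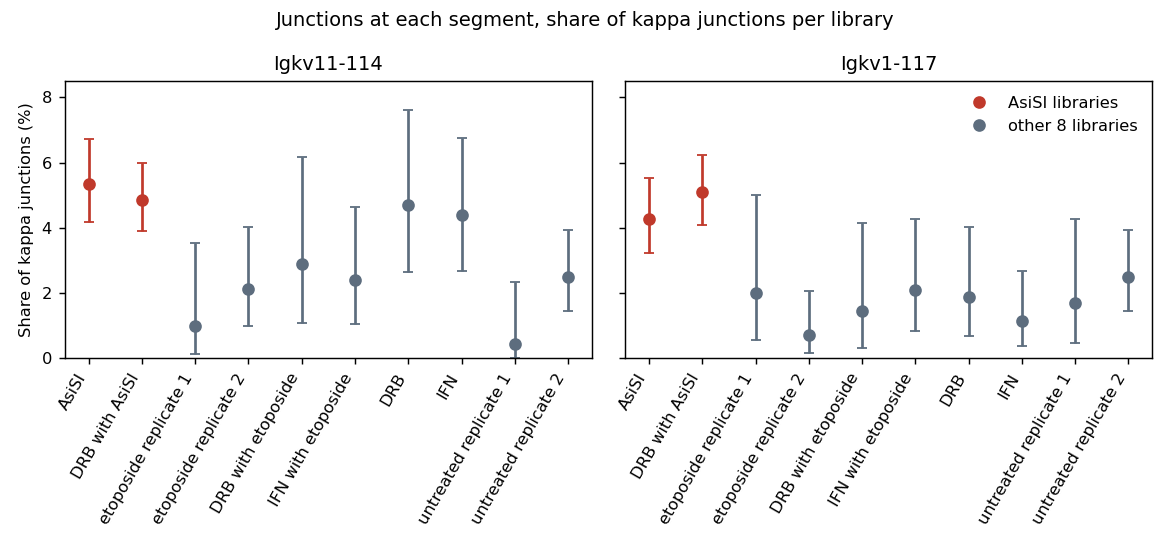
Share of kappa junctions (y axis, %) at Igkv11-114 (left) and Igkv1-117 (right) in each of the 10 libraries (x axis). Points are single libraries, red for AsiSI and grey for the other 8, and bars are exact 95% binomial intervals, which cover counting error only; at Igkv11-114 the DRB and IFN libraries, 4.69% and 4.39%, come close to the AsiSI libraries, and at Igkv1-117 the highest of the other 8 is 2.48%.

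The libraries fell into 4 sequencing runs by their read names, and both AsiSI libraries made up 1 run of their own. AsiSI and the run cannot be told apart. The AsiSI libraries were also among the deeper ones, with 1288 and 1730 kappa junctions, against 201 to 685 in the other 8, and libraries held 2044 to 13425 junctions in all. Junctions within 1 Mb of the bait give a scale that does not use the kappa locus. Per 1000 of them, Igkv11-114 had 8.65 ± 0.901 junctions in the AsiSI libraries (SD, n = 2) and 2.90 ± 1.48 in the other 8 (SD, n = 8), a ratio of 2.98, and Igkv1-117 had 7.90 ± 0.701 and 2.21 ± 1.06, a ratio of 3.58. On this scale too, both AsiSI libraries were above the other 8 at both members. The same junctions chose the members, so this is a description only.

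The members lie 42633 bp apart, 26.6 Mb from the bait and about 2.6 Mb before the first J segment, Igkj1, which starts at 70722562. The stretch between their windows also carried more junctions in the AsiSI libraries. It held 176 junctions, 121 in the AsiSI libraries and 55 in the other 8, with a mean share of 4.04 ± 0.322% in the AsiSI libraries (SD, n = 2) and 1.83 ± 0.610% in the other 8 (SD, n = 8). Its 2 AsiSI values, 4.27% and 3.82%, were above the range of the others, 0.481% to 2.37%. Of these 176, the windows of the 2 neighbours inside the interval account for some: Igkv1-115, 2742 bp from Igkv11-114, had 11 junctions, 7 of them in AsiSI libraries, and Igkv2-116, 30059 bp from Igkv1-117, had 32, of which 27 were in AsiSI libraries and 5 in the other 8. On the outer sides, Igkv2-113 had 11 junctions, 8 of them in AsiSI libraries, and Igkv11-118 had 1, in none of the AsiSI libraries.

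The windows catch most but not all of the local junctions. Igkv11-114 had 145 junctions in the 500 bp before the segment, 60 inside it and 25 in the 500 bp after it, and just outside there were 9 in the next 500 bp before and 38 after. Igkv1-117 had 31 before, 80 inside and 81 after, with 17 and 26 just outside. Only Igkv6-32, with 382 junctions, held more than the members, and Igkv11-125 with 157 and Igkv8-30 with 155 came next. Over the 10 libraries and among segments with at least 50 junctions, the share most like that of Igkv11-114 was that of Igkv6-32 (Pearson r = 0.65, Spearman rho = 0.61), followed by Igkv1-117 (0.54 and 0.44) and Igkv8-27 (0.52 and 0.43). For Igkv1-117 the order among the same segments was Igkv11-114, then Igkv8-27 (0.51 and 0.37) and Igkv6-32 (0.44 and 0.26). The points of these correlations share libraries, runs and 1 denominator, and they are a description. Both members were also chosen for high shares in the AsiSI libraries, which by itself raises the correlation between them.

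**Figure D4:**
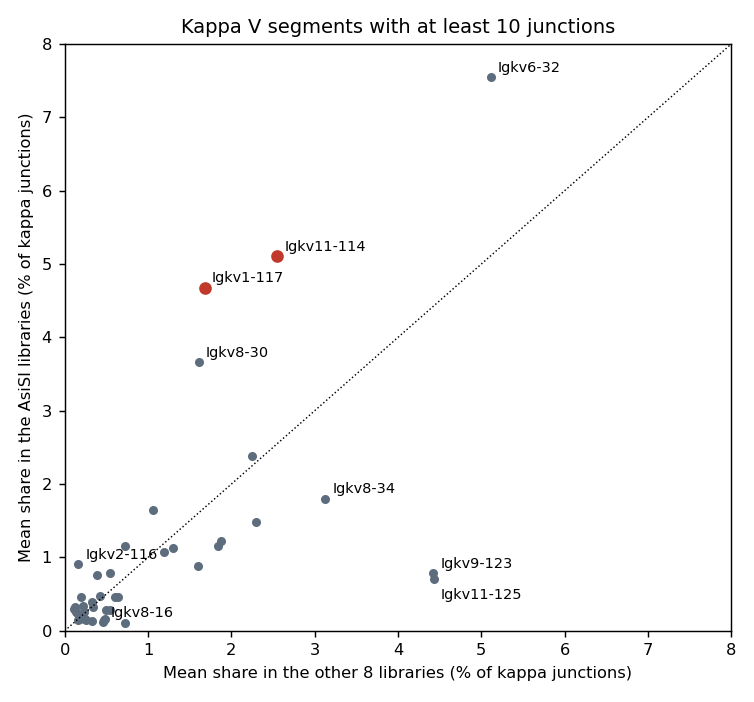
Mean share of kappa junctions in the AsiSI libraries (y axis, %, n = 2) against the mean in the other 8 (x axis, %, n = 8) for the 42 V segments with at least 10 junctions; the dotted line marks equal shares. Both members, in red, lie above the line near 5%, and Igkv11-125 and Igkv9-123 lie below it, at 0.706% and 0.784% in the AsiSI libraries and 4.43% and 4.42% in the other 8.

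The junctions gathered at the same points in both sets of libraries. Within 100 bp of its dividing point Igkv11-114 had 52 of 69 junctions (75.4%, exact 95% interval 63.5 to 84.9) in the AsiSI library and 55 of 84 (65.5%, 54.3 to 75.5) with DRB and AsiSI, against 60 of 77 (77.9%, 67.0 to 86.6) in the other 8 pooled. Igkv1-117 had 22 of 55 (40%, 27.0 to 54.1) in the AsiSI library and 49 of 88 (55.7%, 44.7 to 66.3) with DRB and AsiSI, against 28 of 49 (57.1%, 42.2 to 71.2) in the other 8 near its signal. All these intervals overlap within each member, and they cover counting error only.

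The strand of a junction was not used in choosing the segments. Strand is not the same as side: 103 of 120 minus-strand junctions at Igkv11-114 lay on the heptamer side, and 96 of 109 at Igkv1-117 on the coding side. At Igkv11-114 the minus strand held 47.8% of the junctions in the AsiSI library and 45.2% with DRB and AsiSI. It held 60% with DRB alone, 63.2% with IFN alone and 64.7% in untreated replicate 2. These are the libraries with at least 10 junctions. The AsiSI values were the lowest, and the means differed by -16.1 percentage points (exact permutation p = 0.2, two-sided, as small as 2 libraries against 3 allow). With at least 5 junctions per library, 2 were set against 6 and the difference was -14.6 points (exact permutation p = 0.0714, again the smallest possible). At Igkv1-117 the minus strand held 65.5% in the AsiSI library and 53.4% with DRB and AsiSI, against 47.1% in untreated replicate 2. The difference was 12.4 points (exact permutation p = 0.667, the smallest possible for 2 against 1). In the other V segments the minus strand held 47.3% to 51.3% in these libraries. Those segments lie in both orientations, so their minus strand mixes heptamer and coding sides and is not a like comparison. None of these designs could reach 0.05.

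The sequence at the joins resembled that of other kappa V segments. Bait and prey alignments can share bases at the junction (overlap above 0), meet directly (0) or leave inserted bases (below 0). The median overlap was 3 bases at Igkv11-114, at Igkv1-117 and in the other V segments. At least 2 shared bases were found in 179 of 230 junctions (77.8%) at Igkv11-114 and in 142 of 192 (74.0%) at Igkv1-117, against 1874 of 2488 (75.3%) in the other V segments. Bases were inserted in 20 junctions (8.70%) at Igkv11-114 and 17 (8.85%) at Igkv1-117, against 261 (10.5%) in the other V segments. Direct joins made up 3.48% at Igkv11-114 and 8.85% at Igkv1-117, against 4.98%, and 13 of the 17 direct joins at Igkv1-117 came from the library with DRB and AsiSI.

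Within libraries with at least 10 junctions, differences from the other V segments ran both ways. At least 2 bases were shared by 68.2% of the Igkv1-117 junctions with DRB and AsiSI, against 75.5% in the other V segments, and by 94.1% in untreated replicate 2, against 76.3%. At Igkv11-114 the mean share with at least 2 shared bases differed by 3.67 points (exact sign-flip permutation p = 0.25 over 5 libraries) and the share with insertions by -2.14 points (p = 0.312 by the same exact permutation, whose smallest value is 0.0625). At Igkv1-117 the mean differences were 4.77 and -1.58 points (exact permutation p = 0.75 for each over 3 libraries, where 0.25 is the smallest possible). None passed the threshold of 0.05, which 5 or 3 libraries could not reach. The median number of bait bases lost was 21.5 at Igkv11-114 and 26.5 at Igkv1-117, against 26 in the other V segments. No junction repeated another in the same library by position, strand, alignment length and bait end, and the junctions took 141 distinct positions at Igkv11-114 and 149 at Igkv1-117.

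**Figure D5:**
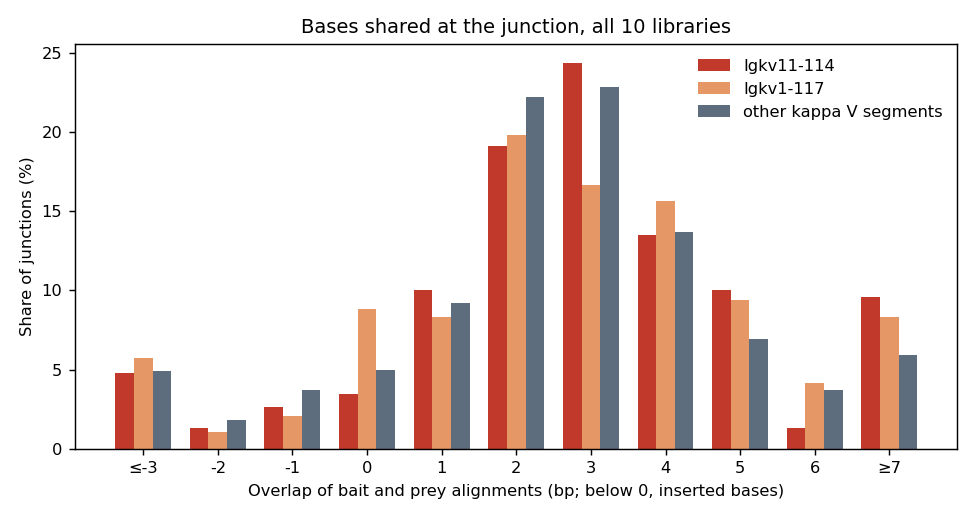
Share of junctions (y axis, %) by the overlap of bait and prey alignments (x axis, bp; below 0, inserted bases) at Igkv11-114, at Igkv1-117 and in the other kappa V segments, all 10 libraries together. The profiles peak at 2 to 3 shared bases, and Igkv1-117 has the tallest bar at 0, with 8.85% of its junctions.

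Adding DRB to AsiSI was compared between 1 library of each kind, by Fisher's exact test on the kappa junctions of each V segment, with Benjamini-Hochberg adjustment over the 26 segments tested. The share of Igkv11-114 was 4.86% with DRB and AsiSI and 5.36% with AsiSI, a difference of -0.50 points (Fisher's exact test, adjusted p = 1). The share of Igkv1-117 was 5.09% with DRB and AsiSI and 4.27% with AsiSI, a difference of 0.82 points (Fisher's exact test, adjusted p = 1). No segment passed (0%), and 0 had an unadjusted p under 0.05. Such tests compare single libraries and cover counting error only.

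As shares of kappa junctions, no difference between etoposide and untreated libraries passed a test at either member. As shares of all prey more than 1 Mb from the bait, both members were lower with etoposide in replicate 2. The differences were -1.37 points at Igkv11-114 (Fisher's exact test, adjusted p = 6.33e-06) and -1.53 points at Igkv1-117 (Fisher's exact test, adjusted p = 1.37e-08). The whole kappa locus was also lower on this scale, at 422 of 3721 prey junctions with etoposide and 685 of 1055 untreated. These libraries are of different runs, and how many other segments passed over prey was not counted, so these p-values are not read as results about the members. Over replicates Igkv11-114 averaged 1.56 ± 0.804% with etoposide and 1.45 ± 1.46% untreated, and Igkv1-117 averaged 1.35 ± 0.904% with etoposide and 2.08 ± 0.561% untreated (SD, n = 2 each). The exact permutation p was 1 for Igkv11-114 and 0.667 for Igkv1-117, and 2 against 2 cannot go below 0.3333. Between the libraries of replicate 2, Igkv1-117 had 3 of 422 kappa junctions with etoposide and 17 of 685 untreated, a difference of -1.77 points (Fisher's exact test, p = 0.0357, adjusted p = 0.235 over 15 segments, of which 0% passed). Igkv11-114 differed there by -0.35 points (Fisher's exact test, adjusted p = 0.968). In replicate 1 the counts were 2 with etoposide and 1 untreated at Igkv11-114 and 4 each at Igkv1-117, too few to test.

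DRB and IFN without added breaks were set against untreated replicate 2, which shares their run. Igkv11-114 was at 4.69% with DRB and 2.48% untreated, a difference of 2.21 points (Fisher's exact test, adjusted p = 0.528 over 13 segments), and at 4.39% with IFN, a difference of 1.91 points (Fisher's exact test, adjusted p = 0.334 over 15). Igkv1-117 was at 1.88% with DRB and 2.48% untreated, a difference of -0.61 points (Fisher's exact test, adjusted p = 0.910), and at 1.15% with IFN, a difference of -1.33 points (Fisher's exact test, adjusted p = 0.394). No segment passed the test (0% in each). With a 1000 bp window the DRB difference at Igkv1-117 was 0.37 points, on the other side of 0 (Fisher's exact test, adjusted p = 1). With etoposide, IFN was set against etoposide replicate 1, the control the labels name, which is of another run, and differed by 1.39 points at Igkv11-114 (Fisher's exact test, adjusted p = 0.883 over 10 segments) and by 0.0995 points at Igkv1-117 (adjusted p = 1, Fisher's exact test). Against etoposide replicate 2, which shares its run, the IFN differences were 0.26 points at Igkv11-114 (Fisher's exact test, adjusted p = 1) and 1.38 points at Igkv1-117 (Fisher's exact test, adjusted p = 0.474), so which member differed more depended on the control library. DRB with etoposide had 6 and 3 junctions at Igkv11-114 and Igkv1-117, against 2 and 4 in etoposide replicate 1, too few to test, with differences of 1.89 and -0.55 points. Against etoposide replicate 2, of the same run, the DRB differences were 0.75 points at Igkv11-114 (Fisher's exact test, adjusted p = 0.973) and 0.73 points at Igkv1-117, which was again not tested.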

How the data were processed

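The authors deposited, per the file headers, 1 list per library with 1 translocation junction per line, giving position, strand, read sequence and the bait and prey alignments, and nothing was normalized in them. Per the labels, junctions came from the assay's standard pipeline. Builds mm10 and GRCm38.p2 and the tool bedtools appear in the submitters' processing notes. The aligner is not given in the sources used here. Segment positions came from RefSeq (GRCm38.p6, whose main chromosomes have the mm10 coordinates). No genome sequence was given, so printed bases are majority bases of reads, and orientation was read from reads. Junctions within 500 bp of a segment were divided by all junctions in the kappa locus (chromosome 6, 67555636 to 70726754), of which libraries held 201 to 1730. The 83 junctions on unplaced or other sequences were left out of counts of prey.

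Intervals are exact 95% Clopper-Pearson and cover counting error only. PCR reads are not independent molecules. Permutation tests over libraries and Fisher's exact test, two-sided, adjusted by Benjamini-Hochberg at a threshold of 0.05 (segments with at least 10 junctions in both libraries together) used Python 3.11.15, scipy 1.17.1, numpy 2.4.6 and pandas 2.3.3. P-values over libraries measure their spread, which may be technical. On simulated data for DRB with AsiSI against AsiSI, the Fisher step called 194 of 200 segments changed 3-fold and 6 of 1224 unchanged ones. Named segments were the members, their neighbours, the 5 with the most junctions and the 3 with the most similar shares among segments with at least 50 junctions. Segments whose AsiSI and other libraries do not overlap, and those of the break-point comparison, were named after their values were seen. Sites in the break-point description were also chosen after seeing the junctions. The members and lists were chosen with earlier results of these data known. Alternatives changed the window, the denominator, the minimum counts, repeats, controls and libraries.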

Additional observations from a re-analysis of the deposited data

Results flagged for a closer look

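Single libraries moved in opposite directions in 3 pairs of contrasts at the members, and whether the contrasts of a pair differ was not tested. The share of Igkv11-114 with DRB minus that without was -0.50 percentage points with AsiSI, but 1.32 points with etoposide (against the mean of both etoposide libraries) and 3.24 points with no added breaks (against the mean of both untreated libraries). The share of Igkv1-117 with etoposide minus that without was -0.43 points with DRB and 0.93 points with IFN. The counts were low, at 3 of 208 against 6 of 320 kappa junctions with DRB and 7 of 335 against 5 of 433 with IFN. In both, the libraries with and without etoposide were of different runs. Of 4 groups of 8 libraries examined for a single outlying library, 0 had one.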

How the results depend on the processing

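Of 156 recomputed values, 148 kept their direction or their side of the threshold, or moved by less than the spread between libraries. No tested difference had passed in the first place. The difference between the AsiSI libraries and the other 8 moved with the denominator and window: over junctions in kappa V windows it was 5.10 points at Igkv11-114 and 6.14 at Igkv1-117, over prey more than 1 Mb from the bait 2.11 at Igkv1-117, and with a 200 bp window 2.13 at Igkv1-117. It kept its sign in 8 of 8 alternatives at each member, including, chosen after seeing the data, leaving out untreated replicate 1 (2.26 and 3.00 points) or run A (1.95 and 3.05). Since this contrast chose the members, the kept sign is a description and lends no support. Over prey, 4 comparisons passed the threshold by Fisher's exact test: etoposide against untreated in replicate 2 at Igkv11-114 (-1.37 points, adjusted p = 6.33e-06) and Igkv1-117 (-1.53, adjusted p = 1.37e-08), and IFN with etoposide against etoposide replicate 1 (0.20, adjusted p = 0.00165, and 0.16, adjusted p = 0.0145). That denominator includes junctions elsewhere in the genome, and the whole kappa locus moved the same way over it. In replicate 2, kappa junctions were 422 of 3721 prey with etoposide and 685 of 1055 untreated. They were 335 of 3623 with IFN and etoposide and 201 of 10521 in etoposide replicate 1. How many other segments passed over prey was not counted, so nothing about the members is read from the 4 comparisons. Differences that had not passed also turned sign. At Igkv1-117 the sign was kept in 5 of 6 alternatives for DRB against untreated, 5 of 7 for DRB with etoposide and 4 of 6 for etoposide in replicate 1, and at Igkv11-114 in 7 of 10 for etoposide over replicates and 5 of 6 for etoposide in each replicate. Differences in overlap or insertions changed sign in 1 of 6 and 1 of 5 alternatives at Igkv1-117 and in 2 of 5, for insertions, at Igkv11-114. Permuting etoposide and untreated labels within replicate numbers as a block kept the differences, 0.11 and -0.73 points, and gave exact permutation p = 1 for each, while leaving out 1 library at a time moved them between -0.92 and 1.14 points at Igkv11-114 and between -1.37 and -0.09 at Igkv1-117, none past the threshold. The labels pair replicate numbers only as treatment and control, and replicates 1 alone share a run. With at least 20 junctions per library no strand difference could be computed. Depth limits the other 8 libraries, which had 1 to 19 junctions at a member.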
